A study of Mus musculus with 4 samples.

Results

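The regions described here were open in fibroblasts from mouse embryos (MEF), in induced pluripotent cells (iPSC) and in embryonic stem cells (ESC), and had no listed peak in a cell population partway through a conversion of fibroblasts to neural stem cells. They were found in ATAC-seq peak lists, in which a transposase marks accessible DNA by inserting sequencing adapters. Peaks of the 4 lists on the 19 autosomes were pooled and joined where the next peak began at most 10 bp after the previous one ended, which gave 168348 regions. A region was called open in a library whose list had a peak in it and closed otherwise. Of these regions, 3700 were open in the lists of MEF, iPSC and ESC but not in that of the population under conversion, the intermediate. They are called members below, and the 17618 regions open in every list serve as their reference. The members were chosen by the presence or absence of listed peaks, so their absence from the intermediate is a description and not a finding.

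There were 4 libraries, 1 per population, made from 50000 cells each. MEF and iPSC carried the strain and transgene label A12 (Mbd3 flox/-), in which Mbd3 encodes a subunit of the NuRD repressor complex. ESC were of the v6.5 line. The intermediate, IES9 in the labels, came from fibroblasts of strain B6/129 with a Rosa26-TdTomato allele from a B6 female, a Col1a-OSKM transgene from a 129 male and a Nanog-CreER reporter. Those cells received doxycycline and 4-hydroxytamoxifen from day 1 to day 9 to switch on Oct4, Sox2, Klf4 and Myc (OSKM) and to let Nanog-driven Cre mark cells with tdTomato. A JAK1 inhibitor at 0.5 µM was in the medium, and tdTomato-positive cells were sorted, with no MEF feeders per the label. The title of that sample gives day 9 and its source field gives day 6. Strain, transgenes, inhibitor, sorting and cell state all differ between IES9 and the other libraries at once, and their parts cannot be told apart. Since each group has 1 library, nothing could be checked against replicates or tested, and intervals on shares are Wilson 95% intervals that cover counting error over regions or genes only.

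Accessible regions at gene starts are held open in most cell types by broadly expressed factors, whereas distal regions, many of them enhancers, are usually specific to a cell type. In reprogramming, the OSKM factors close many fibroblast enhancers and open pluripotency enhancers. Hox, T-box and forkhead genes, which encode patterning transcription factors, lie in CpG-rich chromatin that is often under Polycomb control in pluripotent cells.

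Promoter windows of 6 genes with a member are shown because they belong to the gene groups that recur below, and because they hold few to many CpG dinucleotides. Each runs 5′ to 3′ along the gene from 250 bases before the start to 50 after it, taken from RefSeq for GRCm38.p6, with CpG dinucleotides in capitals. All 6 windows lay wholly inside a member.
Hoxa5, chr6:52204538-52204837, minus strand: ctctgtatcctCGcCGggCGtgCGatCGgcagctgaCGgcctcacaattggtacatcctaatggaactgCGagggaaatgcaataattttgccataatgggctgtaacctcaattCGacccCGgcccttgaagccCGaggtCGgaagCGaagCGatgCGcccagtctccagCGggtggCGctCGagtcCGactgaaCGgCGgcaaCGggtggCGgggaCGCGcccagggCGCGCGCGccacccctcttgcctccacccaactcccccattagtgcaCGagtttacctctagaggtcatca
Hoxd9, chr2:74697513-74697812, plus strand: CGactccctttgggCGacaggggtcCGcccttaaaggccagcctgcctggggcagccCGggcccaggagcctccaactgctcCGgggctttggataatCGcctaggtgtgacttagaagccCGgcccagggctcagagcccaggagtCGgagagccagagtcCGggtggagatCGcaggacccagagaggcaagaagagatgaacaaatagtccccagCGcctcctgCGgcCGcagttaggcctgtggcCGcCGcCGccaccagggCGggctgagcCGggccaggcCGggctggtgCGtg
Hoxd11, chr2:74679308-74679607, plus strand: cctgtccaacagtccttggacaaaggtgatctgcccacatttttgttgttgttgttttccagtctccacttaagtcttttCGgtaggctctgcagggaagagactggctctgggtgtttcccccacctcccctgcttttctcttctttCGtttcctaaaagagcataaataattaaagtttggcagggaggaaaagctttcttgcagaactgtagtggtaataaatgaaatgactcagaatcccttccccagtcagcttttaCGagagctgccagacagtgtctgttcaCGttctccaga
Foxf2, chr13:31625566-31625865, plus strand: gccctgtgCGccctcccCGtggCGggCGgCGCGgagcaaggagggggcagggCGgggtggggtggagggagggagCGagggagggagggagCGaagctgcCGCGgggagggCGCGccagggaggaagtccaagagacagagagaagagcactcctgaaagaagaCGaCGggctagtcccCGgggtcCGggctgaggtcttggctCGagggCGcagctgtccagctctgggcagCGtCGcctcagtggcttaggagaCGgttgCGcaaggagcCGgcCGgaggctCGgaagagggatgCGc
Twist2, chr1:91801211-91801510, plus strand: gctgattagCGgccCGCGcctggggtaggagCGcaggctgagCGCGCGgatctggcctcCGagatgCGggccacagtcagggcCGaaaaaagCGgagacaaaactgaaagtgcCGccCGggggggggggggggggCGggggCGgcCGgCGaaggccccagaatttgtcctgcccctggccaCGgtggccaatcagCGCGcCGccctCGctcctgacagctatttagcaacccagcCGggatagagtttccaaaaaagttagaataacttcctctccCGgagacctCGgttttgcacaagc
Kdr, chr5:75978406-75978705, minus strand: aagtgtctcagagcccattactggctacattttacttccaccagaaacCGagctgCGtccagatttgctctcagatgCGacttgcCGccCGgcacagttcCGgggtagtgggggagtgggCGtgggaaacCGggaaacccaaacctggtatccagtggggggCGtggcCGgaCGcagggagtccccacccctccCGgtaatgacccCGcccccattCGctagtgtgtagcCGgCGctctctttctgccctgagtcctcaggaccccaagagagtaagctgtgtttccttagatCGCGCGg
The Hoxd11 window held 4 CpG dinucleotides and the Hoxa5 window 29, and the windows of Hoxd9, Kdr, Twist2 and Foxf2 held 20, 19, 25 and 27. The Hoxd11 window carried a match to the AP-1 motif, and those of Hoxd9, Foxf2, Twist2 and Kdr carried a GC box.

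Members were 17.4% of the 21318 regions open in the other 3 lists (Wilson interval 16.9% to 17.9%). This share is the background for counts over all regions. Within 1 kb of an end of a protein-coding gene the background was lower, at 7.17% of regions and 7.13% of genes. The same kind of region was more common for MEF and rarer for the pluripotent lines. Regions closed in MEF alone numbered 9900, or 36.0% of regions open in the other 3 lists. Regions closed in iPSC alone numbered 1863 (9.56%), and those closed in ESC alone 968 (5.21%). There were 1.99 members for each region closed in iPSC alone and 3.82 for each region closed in ESC alone. With the IES9 list kept whole and the other lists cut to their taller 50%, the iPSC ratio turned to 0.875, below 1, and the ESC ratio was 2.51. The IES9 list was not the shortest, with 130631 peaks against 155064 in MEF, 128931 in iPSC and 125858 in ESC. Its read depth is unknown, and the part of depth in these counts was not tested.

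The members were low and narrow beside regions open in all 4 lists, as were regions closed in iPSC or ESC alone. The height of a peak is a whole-number signal that is not scaled between libraries, so heights were ranked within each list, and a percentile below is the share of that list's peaks at or under the given height. The tallest peak in a member had a median height of 43 in MEF, 53 in iPSC and 42 in ESC, at percentiles 70.4, 66.1 and 67.0 of those lists. In regions open in all 4 lists the medians were 87, 95 and 92, at percentiles 90.1, 85.8 and 89.5. In regions closed in iPSC alone the median ESC height was 38, and in those closed in ESC alone the median iPSC height was 43. Median width was 1120 bp in members and 1650 bp in regions open in all 4 lists, and 1130, 1180 and 1200 bp in regions closed in MEF, iPSC and ESC alone. A base covered by a peak of all 3 lists existed in 3603 members (97.4%), so few members were joined from neighbouring peaks that did not overlap.

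The share closed in IES9 fell with height. Regions open in the other 3 lists were divided into 4 equal groups by the lowest of their 3 percentiles. In the lowest group 39.4% were closed in IES9, in the next 23.0%, then 6.27%, and 0.750% in the highest. Position was related to the share within each of these groups. Of regions within 1 kb of either end of a protein-coding gene 7.17% were closed, against 28.5% of regions farther away. In the lowest height group the shares were 28.3% (26.1% to 30.7%) at gene ends and 43.5% (42.0% to 45.1%) elsewhere, and in the highest group 0.254% (0.142% to 0.454%) and 2.90% (2.03% to 4.13%).

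**Figure D1:**
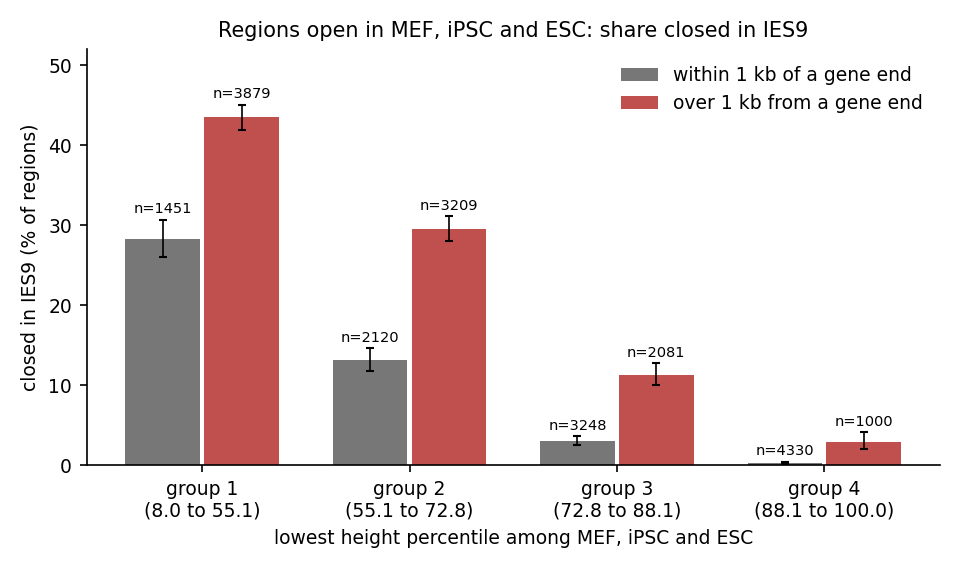
Bars give the percentage of regions open in MEF, iPSC and ESC that had no peak in IES9, by 4 groups of the lowest height percentile and by distance to a gene end, with Wilson 95% intervals and the number of regions. The share falls from 43.5% to 2.90% away from gene ends and from 28.3% to 0.254% at gene ends.

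Members lay mostly away from gene ends. At a gene end were 799 members, or 21.6% (20.3% to 22.9%), against 58.7% of regions open in all 4 lists. A further 39.5% of members lay inside a gene and 38.9% between genes, and the median distance to a gene end was 13.3 kb. Regions closed in iPSC alone were at gene ends as often (21.6%), while those closed in MEF alone (9.25%) or ESC alone (8.88%) were there less often. By chromosome, the share of regions closed in IES9 ranged from 13.7% on chromosome 7 to 23.4% on chromosome 18. The Wilson intervals of these extremes were 12.1% to 15.5% and 20.3% to 26.7%.

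The 3 lists ranked the members differently. Across members, Spearman's correlation of the height percentile was 0.36 between iPSC and ESC and 0.095 for MEF against either of them, over 3700 regions that share 3 libraries. Across regions open in all 4 lists the corresponding values were 0.71, 0.49 for MEF and iPSC, and 0.67 for MEF and ESC. The highest of the 3 percentiles was that of MEF in 42.9% of members, of iPSC in 30.0% and of ESC in 27.1%. The quartiles of member heights in MEF were 34 and 59, against 52 and 150 in regions open in all 4 lists, and the part of this narrower range in the weaker correlations was not tested.

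Few members were near misses of an IES9 peak. The median distance from a member to the nearest IES9 peak was 9896 bp, beside 10091 bp between regions closed in MEF alone and the nearest MEF peak. The same distance was 5601 bp for iPSC alone and 6971 bp for ESC alone. Only 28 members lay within 100 bp of an IES9 peak and 315 (8.51%) within 1 kb, while 420 (11.4%) lay beyond 50 kb. Just inside the 10 bp threshold were 3 members, each 11 bp from an IES9 peak, inside Nxph1, 14.6 kb from Zfp637 and 185 kb from Atxn7l3b. Their heights in MEF, iPSC and ESC were 33, 36 and 54 at Nxph1, 43, 52 and 24 near Zfp637, and 31, 38 and 27 near Atxn7l3b. With peaks joined only where they shared bases, members numbered 3764. Just outside the threshold, each of the 17618 regions open in all 4 lists had an IES9 peak that shared bases with a peak of some other list. In those regions the IES9 peak had a median height of 83, and in 1 it was under 10.

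The fall with height did not extend to the very tallest regions. Of regions whose lowest percentile was between 95 and 99, 3 of 1809 were closed in IES9 (0.166%, 0.0564% to 0.486%). At or above the 99th percentile it was 11 of 395 (2.78%, 1.56% to 4.92%). This cut was chosen after the values were seen. The next member in rank had a lowest percentile of 97.0, so the 11 stood apart from all other members.

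The tallest of them lay 15.3 kb from Adgre5, an adhesion receptor gene of leukocytes, at chr8:83756631-83757670, with heights of 941 in MEF, 909 in iPSC and 948 in ESC. A region at chr14:90910911-90911800, with no annotated gene of any type within 100 kb, had 1034, 892 and 1037. One inside Greb1, an oestrogen-regulated gene, had 742, 803 and 780. Each lay among the tallest peaks of its list.

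One inside Pde1c, which encodes a calmodulin-dependent phosphodiesterase, had 794, 713 and 769. At 31.3 kb from D430019H16Rik the heights were 879, 664 and 851, and at 34.5 kb from Eno1b they were 927, 664 and 747. At 39.8 kb from Stt3b, a catalytic subunit of the oligosaccharyltransferase, they were 709, 512 and 659. In these 4 the iPSC height was the lowest of the 3.

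The remaining 4 were a region at the end of Gm40469 (498, 1064 and 494), the only one at a gene end, and regions 175 kb from Rbfox1 (674, 525 and 569), 518 kb from Adgrl3 (593, 497 and 583) and 609 kb from Map3k7 (651, 522 and 653). Over the 11, the ratio of unscaled MEF to ESC height ran from 0.951 to 1.24 with a median of 1.02, and that of iPSC to ESC from 0.777 to 2.15 with a median of 0.889. In the 384 regions of this height class that were open in all 4 lists, the medians were 1.14 and 1.66. The 11 had a median width of 870 bp against 2060 bp, and 310 of the 384 were at gene ends. In 339 of the 384 the IES9 peak was itself at or above the 99th percentile of its list. Of regions closed in another list alone, 11 of 9900 for MEF, 0 of 1863 for iPSC and 1 of 968 for ESC were this tall in the lists that held them.

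**Figure D2:**
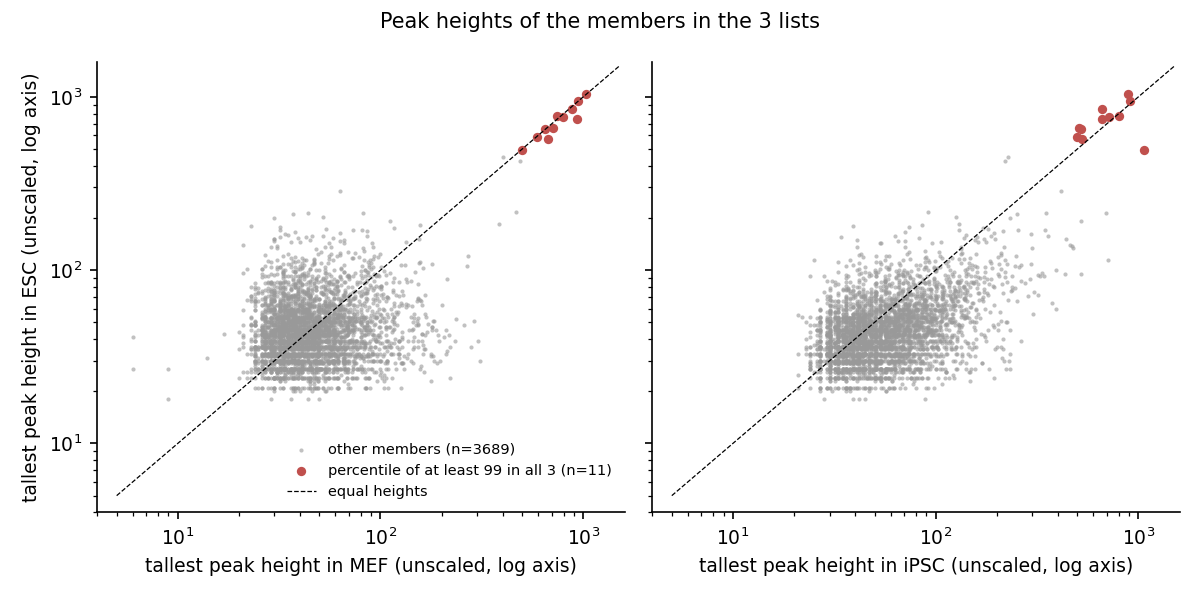
Each point is a member, placed by the height of its tallest peak in MEF (left) or iPSC (right) and in ESC, on log axes without scaling between libraries. The 11 members at or above the 99th percentile in all 3 lists (red) lie apart from the other members, and in the left panel close to the line of equal heights.

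Next in rank after the 11 were neighbouring wide members on chromosome 6, at the end of Gm40363 and 21.6 kb from it. The first was 22880 bp wide, with 27, 15 and 29 peaks in MEF, iPSC and ESC. The second was 13510 bp wide, with 15, 11 and 18. How reads that map to several places were treated is not stated. Among the other tall members, one inside Col12a1, which encodes a collagen of fibril surfaces, had 155, 441 and 151, and one inside Abcb1b, a multidrug transporter gene, had 111, 522 and 191. Both were tallest in iPSC. A member 4.8 kb from Impact, an imprinted gene, had 384, 131 and 184 and was tallest in MEF. A member inside Cdkn2a, the locus of the cell-cycle inhibitors p16 and Arf, had 90, 187 and 110. Impact and Cdkn2a had IES9 peaks 0.671 kb and 6.22 kb from these members.

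At genes, 861 of 12076 protein-coding genes with an end region open in MEF, iPSC and ESC had a member at an end, or 7.13%. Of the 861, 587 had no IES9 peak at either end, and the other genes kept an IES9 peak within 1 kb of an end beside the member. Gene ends were used because the gene table gives no strand. The gene groups below were chosen with earlier results of these data known, and no group was tested against the rest. Heights are given unscaled in the order MEF, iPSC and ESC, and where 1 list is called highest or lowest the percentiles have the same order.

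Hox genes, which set position along the body axis, had a member at an end in 8 of 20 genes (40%, 21.9% to 61.3%). The corresponding counts for end regions closed in MEF alone, iPSC alone and ESC alone were 1 of 15 each. The 8 genes were Hoxa3, Hoxa5, Hoxa6, Hoxd3, Hoxd8, Hoxd9, Hoxd11 and Hoxd13, and Hoxa5 and Hoxa6 share 1 member. Of the 8, 5 had no IES9 peak at either end. That member had heights of 57 in MEF, 54 in iPSC and 47 in ESC. At Hoxd9 the heights were 30, 39 and 39, at Hoxd8 they were 32, 48 and 41, and at Hoxd11 they were 27, 44 and 37. By percentile, the Hoxd8 and Hoxd11 members ranked lowest in MEF (55.1 and 45.4), the Hoxd9 member ranked alike in MEF and iPSC (51.4 and 51.3) and higher in ESC (63.5), and the Hoxa5 member ranked highest in MEF (80.6).

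The HoxD cluster on chromosome 2 held 6 members among 20 regions and 3 regions open in all 4 lists. The HoxA cluster held 2 members among 28 regions and 6 open in all 4. The HoxB and HoxC clusters held 0, although they had 2 and 3 regions open in all 4. The peaks of IES9 fell in 6 of the 20 HoxD regions, against 12 for MEF, 16 for iPSC and 13 for ESC. In the stretch from Hoxd10 to Hoxd8, 3 members followed one another in 29.2 kb without an IES9 peak.

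Developmental homeobox genes outside the clusters had a member at an end in 7 of 35 genes (20%, 10.0% to 35.9%), namely Alx4, Irx2, Irx3, Lhx2, Lhx5, Otx2 and Prrx2. End regions closed in MEF alone were as frequent there, at 7 of 35 genes, and 3 of the 7 genes with a member had no IES9 peak at either end. At Otx2, a factor of forebrain and primed pluripotent cells, the heights were 38, 35 and 42, and at Prrx2, a factor of limb and facial mesenchyme, 35, 32 and 46. At Lhx5, a LIM homeobox gene of the nervous system, they were 74, 41 and 32, the highest in MEF. The T-box and forkhead genes gave 5 of 22 (22.7%, 10.1% to 43.4%), namely Foxc1, Foxe1, Foxf2, Tbx1 and Tbx15, with 1 of 19 genes for MEF alone and 3 of the 5 without an IES9 peak at an end. Foxf2, a forkhead gene of gut and pericyte mesenchyme, had 2 end members, the taller with heights of 54, 91 and 51, and no IES9 peak for 111 kb around it.

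Collagen genes had a member at an end in 8 of 23 genes (34.8%, 18.8% to 55.1%). They were Col12a1, Col13a1, Col14a1, Col19a1, Col6a6, Col9a2 and the pair Col4a3 and Col4a4, which are transcribed from a shared start and share 1 member. For MEF alone the count was 1 of 16, and 7 of the 8 genes had no IES9 peak at an end. The Col4a3 member had heights of 28 in MEF, 134 in iPSC and 47 in ESC, and the Col19a1 member had 35, 101 and 68. In both, MEF was the lowest. The fibroblast list gave 3 of 20 (15.0%, 5.24% to 36.0%). They were Pdgfra, the receptor for platelet-derived growth factor, Thy1, a surface marker of fibroblasts, and Twist2, a mesenchymal transcription factor. Thy1 had heights of 134, 51 and 61 and Twist2 of 69, 30 and 33, with MEF the highest in both, while Pdgfra had 30, 56 and 30. Thy1 kept an IES9 peak within 1 kb of an end, and for MEF alone the count was 0 of 17.

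Imprinted genes gave 3 of 21 (14.3%, 4.98% to 34.6%), beside 3 of 20 for MEF alone. These were Gnas, with 24, 51 and 84, Nnat, with 75, 72 and 47, and Peg13, a noncoding RNA within Trappc9, with 65, 135 and 33. None had an IES9 peak at an end. Fabp7, a fatty acid carrier of radial glia from the list of neural stem cell genes, the destination of this conversion, had a member at an end with 51, 42 and 36. The vascular receptor gene Kdr, 1 of 2 endothelial genes with such an end region, had 77, 212 and 83, and its lowest percentile was 87.5, above that of every other member named here at an end of a Hox, homeobox, T-box, forkhead, collagen, fibroblast or imprinted gene.

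**Figure D3:**
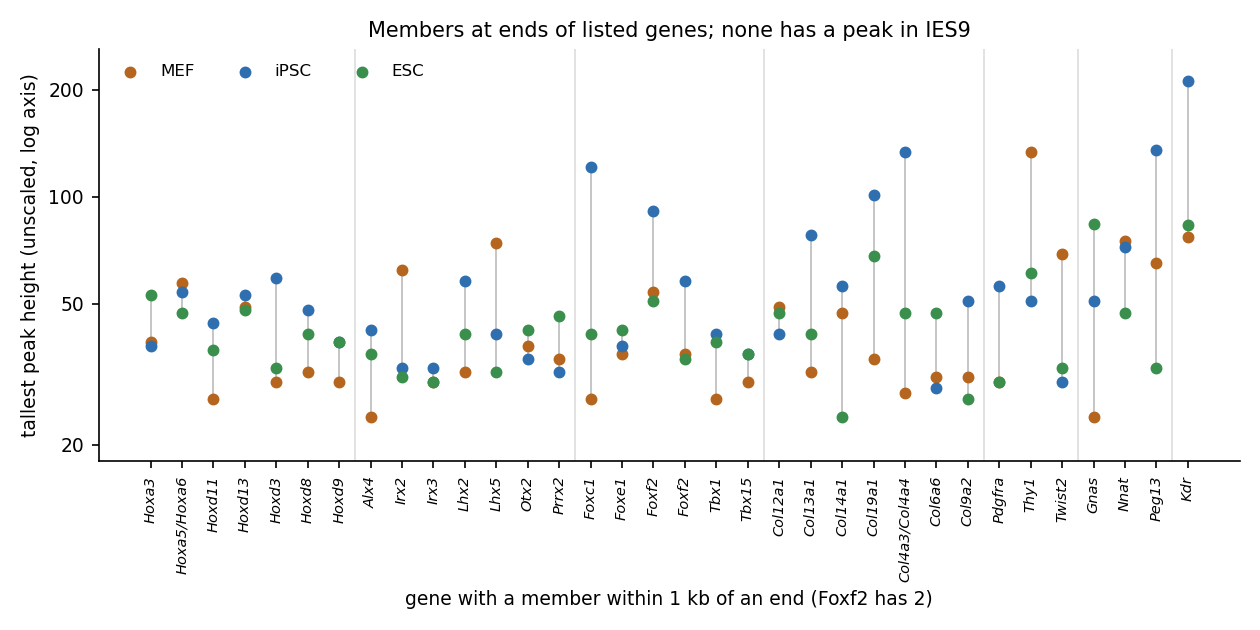
Points give the height of the tallest peak in MEF, iPSC and ESC (log axis, unscaled between libraries) for members within 1 kb of an end of a gene of 7 groups, separated by vertical lines, and equal heights hide one another. Most members lie between 24 and 100, the members at Foxc1, Col19a1, Col4a3, Peg13 and Kdr reach over 100 in iPSC, and the one at Thy1 in MEF.

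In contrast, 0 of 10 pluripotency genes, 0 of 27 Polycomb genes, 0 of 12 housekeeping genes and 0 of 9 CTCF and cohesin genes had a member at an end. In groups of this size a count of 0 allows shares of up to 27.8%, 12.5%, 24.2% and 29.9% (upper Wilson bounds), all above the 7.13% of all protein-coding genes. The contrast concerns gene ends only. Of regions open in MEF, iPSC and ESC and assigned to pluripotency genes within 100 kb, 6 of 29 were members (20.7%, 9.85% to 38.4%). It was 6 of 50 for Polycomb, 2 of 24 for housekeeping and 0 of 16 for CTCF and cohesin genes. Over all protein-coding genes it was 3412 of 20609 (16.6%). Among larger families the count at gene ends was also 0 for 78 ribosomal protein genes (upper bound 4.69%) and 69 mitochondrial ribosomal protein genes (5.27%). The same held for 70 histone genes (5.20%) and 34 proteasome genes (10.2%). Within 100 kb of ribosomal protein genes, 7 of 90 such regions were members. Zinc finger genes named Zfp gave 13 of 314 (4.14%), solute carriers 21 of 205 (10.2%) and genes named Tmem 17 of 166 (10.2%). An end region closed in iPSC alone was found at 10 of 76 mitochondrial ribosomal protein genes and at 48 of 265 tRNA genes, and a member at 4 of 226 tRNA genes. DNA repair and NuRD genes each had 1, namely Xrcc2 of 32 and Mta3 of 12. Germline genes gave 0 of 3, myeloid genes 0 of 1, Rab GTPase genes 4 of 56 and olfactory receptor genes 2 of 4. Outside the protein-coding genes, lncRNA genes had a member at an end in 352 of 2673 cases (13.2%) and miRNA genes in 18 of 191 (9.42%).

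**Figure D4:**
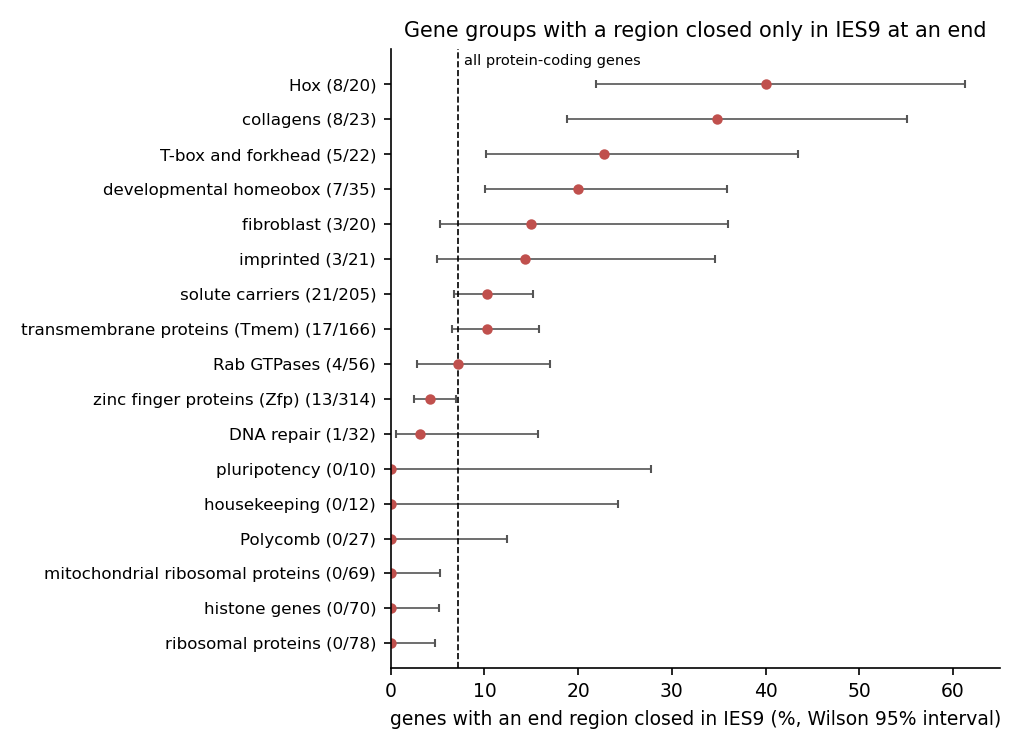
Points give the percentage of genes with a member at an end, of genes with an end region open in MEF, iPSC and ESC, with Wilson 95% intervals and both counts beside the name. Hox (40%) and collagen genes (34.8%) lie highest of the groups drawn, the dashed line marks all protein-coding genes (7.13%), and 6 groups lie at 0. Not every group is drawn. Those left out include endothelial (1 of 2) and olfactory receptor genes (2 of 4), both at 50%. Neural stem cell (2 of 17), mitochondrial respiration (1 of 25) and proteasome genes (0 of 34) are also left out.

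Height moved with these groups. Over all protein-coding genes, 690 of 3571 end regions in the lower 2 height groups were closed in IES9 (19.3%), against 109 of 7578 in the upper 2 (1.44%). In the lower 2 groups the counts of end regions were 7 of 17 for Hox, 7 of 22 for the other homeobox genes, 5 of 14 for T-box and forkhead genes and 7 of 13 for collagens. They were 0 of 36 for ribosomal proteins, 0 of 25 for mitochondrial ribosomal proteins and 10 of 97 for Zfp genes. The Hox interval in these groups (21.6% to 64.0%) and the collagen interval (29.1% to 76.8%) lay above 19.3%, and that of the ribosomal proteins reached 9.64%. The intervals of the other homeobox genes (16.4% to 52.7%) and of the T-box and forkhead genes (16.3% to 61.2%) included 19.3%. This restriction was added after the data were seen. With the IES9 list whole and the other lists cut to their taller 50%, the genes with a member at an end fell in number to 4 for Hox and to 2 each for the other homeobox genes, the T-box and forkhead genes and the collagens.

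The lists also show which libraries had listed peaks at marker genes. An end peak was listed at 27 of 29 pluripotency genes for iPSC, at 25 for ESC, 20 for IES9 and 11 for MEF. Of 32 fibroblast genes 31 had one in MEF, 21 in IES9, 20 in iPSC and 25 in ESC. Of 39 Hox genes 30 had one in MEF, 25 in iPSC, 31 in ESC and 19 in IES9, the fewest of the 4.

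Promoter sequence was not used by the rule. Among 31365 RefSeq promoter windows of 300 bp on the autosomes, 759 touched a member and 12519 a region open in all 4 lists. The members' windows had a median of 16 CpG dinucleotides against 22. Windows with 15 or more were 56.4% (52.8% to 59.9%) of member windows and 75.4% of those open in all 4, and 35.2% of all promoter windows. The share closed in IES9 fell with CpG content, from 14.6% of windows with 0 to 5 CpG to 3.61% of windows with 25 or more.

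Motifs were searched on both strands, each on its own, so that matches to different motifs may overlap. The letters were CCGGAAGT for ETS factors, AAGATGGCG for YY1, TGACGTCA for the cAMP response element (CRE), GCATGCGC for NRF1, CCAAT for the NFY box, GGGCGG for the GC box, CNAGGNGGC for a CTCF core, TGANTCA for AP-1, CACGTG for the E-box, ATGCAAAT for the octamer and ACTACAATT for ZNF143/THAP11. The ETS letters were in 1.71% (1.00% to 2.91%) of member windows, 8.22% (7.75% to 8.71%) of windows open in all 4 lists and 3.95% of all promoter windows. In windows closed in iPSC alone they were in 12.3% (9.20% to 16.4%). Windows closed in MEF alone held them about as rarely as members, in 2.09% (1.31% to 3.32%). For ESC alone it was 1.20% (0.213% to 6.51%). The YY1 letters were in 0.659%, 2.96% and 1.39% of member, all-open and all promoter windows, the CRE in 0.922%, 3.31% and 1.83%, and NRF1 in 2.24%, 5.49% and 2.69%. All 4 were rarer in member windows than in windows open in all 4 lists. The letters of all 4 hold a CG, and member windows had fewer CpG, with a median of 16 against 22. The part of CpG content in these differences was not tested. YY1, the CRE and NRF1 were in 0.369%, 2.21% and 2.33% of windows closed in MEF alone. For iPSC alone these shares were 1.85%, 5.86% and 1.54%, and for ESC alone 0%, 0% and 1.20%.

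The CTCF core was as frequent in members, at 12.6%, as in windows open in all 4 lists, at 13.5% (8.39% of all promoters). AP-1 was in 5.14% and 4.21% (7.85% of all), the E-box in 7.91% and 10.4% (7.14%), the octamer in 1.19% and 1.37% (1.75%) and ZNF143/THAP11 in 0.264% and 0.711% (0.408%). CCAAT was in 25.7% and 38.0% (37.3%) and the GC box in 55.6% and 68.3% (36.0%).

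Part of these differences moved with height. In windows touching regions of the lower 2 height groups, 641 with a member and 3084 open in all 4, CCAAT was in 25.6% and 26.8%, and 15 or more CpG in 56.0% and 62.6%. The ETS letters remained apart at 2.03% (1.19% to 3.44%) and 8.59% (7.65% to 9.63%), as did YY1 at 0.468% (0.159% to 1.37%) and 3.24% (2.67% to 3.93%) and the CRE at 0.936% (0.430% to 2.03%) and 2.95% (2.41% to 3.61%). For NRF1, at 2.65% (1.66% to 4.21%) and 3.86% (3.23% to 4.60%), the intervals overlapped, which does not show that the shares are equal. A match is a description of letters in the window and says nothing of binding.

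**Figure D5:**
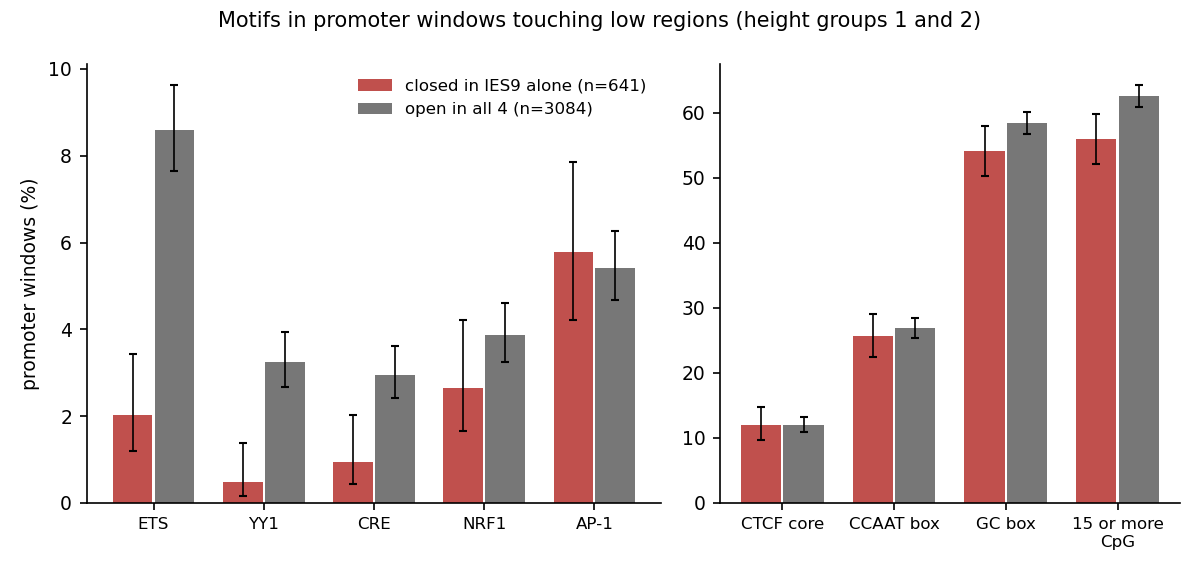
Bars give the percentage of promoter windows with at least 1 match, in windows touching a member or a region open in all 4 lists, within the lower 2 height groups, with Wilson 95% intervals. The ETS, YY1 and CRE letters are rarer in member windows (2.03%, 0.468% and 0.936%) than in the others (8.59%, 3.24% and 2.95%), while the CTCF core and CCAAT bars are close.

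Of 919 autosomal miRNA hairpins in the RefSeq table, 10 overlapped a member. Among regions open in MEF, iPSC and ESC at an end of a miRNA gene, 15 of 174 were closed in IES9 (8.62%). In the lower 2 height groups it was 14 of 71 (19.7%), near the 19.3% at protein-coding genes. Mir34b and Mir34c, p53-responsive miRNAs made from 1 transcript, shared a member at chr9:51102661-51104520 with heights of 52 in MEF, 91 in iPSC and 42 in ESC. Mir199b, a miRNA of mesenchymal cells, lay in a member at chr2:32315381-32320910 with 123, 54 and 39, and Mir574 in one with 60, 82 and 33. The mature sequences that the table holds for the first 3 are shown with the seed (bases 2 to 8) in capitals, because the 3p arms of miR-34b and miR-34c have the same seed.
mmu-miR-34b-3p: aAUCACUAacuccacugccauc
mmu-miR-34c-3p: aAUCACUAaccacacagccagg
mmu-miR-34b-5p: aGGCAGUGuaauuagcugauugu
mmu-miR-199b-3p: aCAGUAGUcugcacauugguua
The Mir34 member was tallest in iPSC and the Mir199b member in MEF. The other hairpins overlapping members were Mir3962, Mir3086, Mir5135, Mir5625, Mir7688 and Gm23363.

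Members were mostly scattered. Between successive IES9 peaks, 3090 members stood alone, 254 stretches held 2 members, 26 held 3 and 6 held 4. The tightest stretch of 4 spanned 12.5 kb at Mab21l2, a gene of eye and brain development that lies within Lrba, in 227 kb without an IES9 peak. At Mab21l2 the 4 members had heights of 101, 56, 55 and 52 in MEF, 107, 56, 29 and 53 in iPSC, and 81, 47, 21 and 51 in ESC. The other 5 stretches of 4 lay at Enah and Lbr, at Sash1, at Pou4f3 and Rbm27, around Mgam, and around Klhl14. Of the 6, 2 were on chromosome 18.

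The 3 members farthest from any IES9 peak lay together on chromosome 12. They were 542 kb, 416 kb and 301 kb away, in 1226 kb that held 20 regions of other lists and no IES9 peak. Their heights were 30, 48 and 60 at the end of Gm3993, 117, 171 and 176 at 42.8 kb from Gm32719, and 37, 253 and 212 at the end of Gm40881. These 3 genes are predicted models, and the treatment of reads that map to several places is not stated. The next were inside Grxcr1 (280 kb), 1316 kb from Pcdh7 (264 kb), inside Cadm2 (264 kb), 1483 kb from Iftap (260 kb), inside Erc2 (258 kb), 247 kb from Dnajc19 (247 kb) and 1028 kb from Acvr2a (238 kb). Cadm2 and Erc2 are genes of synaptic adhesion and of the presynaptic active zone, and Grxcr1 acts in hair cells of the inner ear. Heights in these 3 members ranged from 31 to 126.

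Members assigned to the nearest protein-coding gene within 100 kb fell singly on 2351 genes, while 377 genes had 2, 79 had 3, 12 had 4, 3 had 5 and 1 had 7. Syne1, which encodes a giant protein that ties the nucleus to the cytoskeleton, had 7 members and 2 regions open in all 4 lists over its 531 kb. Ebf1, a transcription factor of B cells and adipocytes, Elmo1, an activator of Rac signalling, and Slc4a4, a bicarbonate transporter, had 5 each. Of the 12 genes with 4 members, the first in alphabetical order were Arhgap24, Atg4c, Bnc2, Cacna2d3, Cdh13 and Gse1, and the rest are not named here. For comparison, 28.5% of all regions open in MEF, iPSC and ESC and over 1 kb from a gene end were members. Regions open in all 4 lists numbered 1 at Ebf1, 3 at Elmo1 and 2 at Slc4a4. They numbered 2 each at Arhgap24, Atg4c and Bnc2, 1 each at Cacna2d3 and Cdh13, and 11 at Gse1. Atg4c was 108 kb long, and the other 9 of these genes were between 353 kb and 1185 kb long.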

How the data were processed

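Peak lists of 4 ATAC-seq libraries (MEF, IES9, iPSC, ESC) were compared. Per the submitters' processing notes, CASAVA 1.8.2, Bowtie2, Picard, MACS 1.4.2-1 and mm10 were used, without stated roles. Per the file headers, the authors' deposited lists give start, end, summit and height of each peak. The height is an unscaled signal with a minimum of 5, and the depth behind it is unknown.

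Peaks on the 19 autosomes were joined at gaps of at most 10 bp with Python 3.11.15 and pandas 2.3.3 in code tested on simulated data. Genes, promoters and miRNAs were RefSeq entries of GRCm38.p6, the assembly behind mm10, and 394 of 405 listed genes matched an autosomal gene. Gene ends (within 1 kb) stood for start sites, so start sites inside a gene were missed and the far ends of genes were included. The RefSeq promoter windows of Hoxd10, Zeb2 and Foxp1 lay in members, but these genes were not counted as having a member at an end. The members, the 16 gene lists, the 10 symbol families and the motifs were chosen with earlier results of these data known. Named genes were list genes with a member at an end, or the tallest within 100 kb, the 10 tallest members, the 10 genes with the most members, the 10 members farthest from IES9 peaks, the stretches with the most members and the members nearest an IES9 peak. Other genes were named after their values were seen. Motifs in distal members were not searched, and some listed genes are not reported here. Alternatives were other joining gaps, taller or equal lists, the X chromosome, 500 bp peaks, and other windows.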

Additional observations from a re-analysis of the deposited data

How the results depend on the processing

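No paired analysis was possible because each group has 1 library. The 17.4% share closed in IES9 moved most when the IES9 list was kept whole and the other lists were cut to their taller 50%. It was then 11.8%, with 2051 members, 515 protein-coding genes with a member at an end and 23.6% of members at a gene end. In that setting there were 2.51 members for each region closed in ESC alone, and the ratio to regions closed in iPSC alone turned from above to below 1, at 0.875. With the taller 50% of every list the share closed was 15.5%, the share at gene ends 29.6% and the ratio to iPSC alone 1.30. Counting an IES9 peak within 1 kb as open gave 15.9%. The share of members at gene ends was 24.9% with peaks of 500 bp around the summit, and 18.8% and 26.9% with gene-end windows of 500 bp and 2.5 kb. Joining gaps of 100 or 500 bp or shared bases alone, lists of equal length and the X chromosome left both shares within their intervals, and the ratios and the numbers of members and of protein-coding genes with a member at an end within 1.5 times. Of 26 counts by gene group, 23 stayed within 1.5 times with a gap of 500 bp and 25 with lists of equal length, where DNA repair genes went from 1 to 2. Fewer stayed under other settings. It was 18 with the taller 50% of every list and 19 with IES9 whole and the others cut. With peaks of 500 bp it was 19, and with the window of 2.5 kb it was 20. With the gap of 500 bp NuRD genes went from 1 to 0 and Rab genes from 4 to 2. For Hox genes the count of 8 ranged from 4 to 10, and for collagens that of 8 ranged from 2 to 9, the lowest with IES9 whole and the others cut. Groups at 0 did not all stay there. With peaks of 500 bp there were 3 proteasome, 2 histone, 1 ribosomal, 1 mitochondrial ribosomal and 1 pluripotency genes with a member at an end. With the taller 50% of every list there were 2 mitochondrial ribosomal, 1 histone and 1 pluripotency genes, and with the window of 2.5 kb 2 histone, 1 proteasome, 1 germline and 1 Polycomb genes. Also, the count of fibroblast genes went from 3 to 8 with the taller 50% of every list. The motif shares of member promoters stayed within their intervals when at least 50% of the window had to overlap.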
